A study of Mus musculus with 2 samples.

Results

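The Mir297, Mir466, Mir467 and Mir669 genes are 81 of the 2202 microRNA genes counted in mouse hippocampus. They were chosen by symbol alone: each name is Mir297, Mir466, Mir467 or Mir669 with optional letters and hyphenated numbers. MicroRNA libraries were made from total RNA of hippocampus tissue, labelled as a layer of hippocampus. The mice were B6CASTF1/J males aged 10 days, hybrids of a C57BL/6J and a CAST/EiJ parent. The samples form 1 group of 2 biological replicates with no treatment, and each replicate is labelled with 3 males. Both replicates carry the same donor identifier but different animal numbers, so the spread between them may in part be technical. With 1 group there is no contrast between conditions: the data address which of these genes gave reads and how far the 2 libraries differed. As a check of the tissue label, with genes picked after the data were seen, the 10 genes of the brain microRNAs Mir9, Mir124a, Mir128 and Mir218 summed to 4805 CPM in replicate 1 and 8279 CPM in replicate 2. CPM stands for counts per 1000000 counts on microRNA genes. Most of this sum was Mir128-1, with 3330 and 5548 CPM, and Mir128-2, with 1256.5 and 2438 CPM, so the check rests mainly on Mir128. The next brain gene, Mir218-2, had 95.1 and 182 CPM. The 3 Mir124a genes, which encode the same mature microRNA, lay between 0 and 3.15 CPM. The liver microRNA Mir122 had 39.5 and 31.5 CPM, and 8 heart and muscle genes summed to 109 and 38.9 CPM. Most of the latter was Mir206, with 102 and 32.6 CPM, which in replicate 1 lay above Mir218-2. The Mir1a and Mir133a genes, each annotated at more than 1 locus, had 0 counts. Mir133b also had 0 counts in both libraries, and whether its reads could be uniquely assigned was not tested. Reads that fit several places were not counted, so the 0 counts of the Mir1a and Mir133a genes do not show absence and do not bear on the tissue label.

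Sfmbt2 encodes a Polycomb group protein. In mouse the gene is imprinted and expressed from the paternal allele in extraembryonic tissues, where the microRNAs in its intron are abundant and are needed for normal growth of the placenta. These microRNAs expanded in rodents by repeated duplication, so that many hairpins are near-identical, and many hold stretches of alternating U and G or C and A bases. A microRNA is cut from one arm of a hairpin precursor and finds its targets mainly through bases 2 to 8 of the mature strand, the seed.

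Of the 81 genes, 71 lie on the plus strand of chromosome 2 between 10466663 and 10518279 (mm10), all within 1 intron of Sfmbt2 at 10461473-10523944, the 10th intron of the transcript Sfmbt2-201. The other 10 lie on chromosomes 3, 5, 7, 9, 10, 11 and 13. The table of RefSeq sequences (GRCm38.p6) matched 9 of the 81 genes, all of them among these 10. The 8 mature sequences it holds are shown because they show the repeat character of these genes. None comes from the 71 genes inside Sfmbt2. Capitals mark the seed.

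mmu-miR-466i-3p: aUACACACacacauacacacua
mmu-miR-466j: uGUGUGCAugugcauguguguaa
mmu-miR-466k: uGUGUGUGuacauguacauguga
mmu-miR-466q: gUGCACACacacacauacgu
mmu-miR-467f: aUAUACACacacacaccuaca
mmu-miR-467g: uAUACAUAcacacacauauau
mmu-miR-467h: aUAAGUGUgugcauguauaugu
mmu-miR-669n: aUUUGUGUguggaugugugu

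In GRCm38.p6 these lie at chr13:17747552-17747573 (miR-466i-3p), chr10:60960802-60960824 (miR-466j), chr3:85467396-85467418 (miR-466k), chr3:28419988-28420007 (miR-466q), chr9:115381898-115381919 (miR-467h) and chr3:115979905-115979924 (miR-669n) on the plus strand. On the minus strand are miR-467f at chr11:69635419-69635439 and miR-467g at chr5:34732872-34732892. All 8 seeds differ. Each of the 8 sequences, read as printed, holds UGUGUG or ACACAC, against 31 of the 1730 other mature sequences in that table (1.79%). These motifs were not set in advance, so this is a description only. A gene outside the family with one of these seeds was Mir668, whose miR-668-5p has the seed of miR-467h. Mir668 had 4908 counts in replicate 1 and 5365 in replicate 2, and Mir467h had 0 in both. These counts are per hairpin, so they do not give the level of miR-668-5p itself. The hairpin of Mir466k, on the plus strand at chr3:85467377-85467498, is shown with its longest run of alternating U and G in capitals, which spans 23 bases.

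Mir466k hairpin: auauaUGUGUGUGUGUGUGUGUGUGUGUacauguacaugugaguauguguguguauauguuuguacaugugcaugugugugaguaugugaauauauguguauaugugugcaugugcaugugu

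Over all 81 hairpins as annotated, the longest run of alternating U and G or C and A had a median of 9 bases and ranged from 6 to 28, the latter in Mir466q. The median over the other 2121 microRNA genes was 4 bases. In the 8 genes of the family that reached 2 CPM in both libraries, all inside Sfmbt2, the longest run ranged from 8 to 15 bases.

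Depth on microRNA genes was 4815761 counts for replicate 1 and 3495401 for replicate 2. With a limit of 3 counts, a gene at 0 could have had as much as 0.623 CPM in the first library and 0.858 CPM in the second. Such limits and all intervals below cover counting error only. Reads that fit several places, 4660508 in replicate 1 and 4020799 in replicate 2, were left out of the gene counts by the deposited processing. They numbered 0.968 and 1.15 for each read counted on any microRNA gene, and 356 and 427 for each read counted on the family. Since they come from the whole library, the latter ratios are large for any set with few counts. Whether any of them came from the family was not tested, and values below are those of uniquely assigned reads. Levels are reads per hairpin and are not divided by length, since a read covers a mature product and not the hairpin.

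Uniquely assigned reads of the family came almost entirely from a few Mir467 and Mir669 genes inside Sfmbt2. The 81 genes held 13084 counts in replicate 1 and 9424 in replicate 2, or 0.271% ± 0.00147 of counts (SD, n = 2). The exact Clopper-Pearson interval at the 95% level was 0.267% to 0.276% in replicate 1 and 0.264% to 0.275% in replicate 2. Genes inside Sfmbt2 held 99.99% of the family's counts in replicate 1 and 99.9% in replicate 2, and just 1 and 7 counts fell on the 10 genes elsewhere. On the opposite strand of the hairpins 0 counts were recorded in both libraries.

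In total 68 of the 81 genes had 0 counts in both libraries, 5 had between 1 and 9 counts in all, and 8 reached 2 CPM in both libraries. The share reaching 2 CPM in both was 9.88%, against 20.1% of all 2202 genes. By name group, 3 of 17 Mir467 genes, 5 of 30 Mir669 genes, 0 of 28 Mir466 genes and 0 of 6 Mir297 genes reached it. Near-identical hairpins, whose reads may not be uniquely assigned, are included in these numbers and are taken up below. The 3 Mir467 genes held 76.1% of the family's counts in replicate 1 (interval 75.4% to 76.8%) and 71.1% in replicate 2 (70.2% to 72.1%). The Mir669 genes held 23.8% and 28.8%. The 28 Mir466 genes, the second largest of the 4 groups, held 4 counts in replicate 1 and 8 in replicate 2.

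Mir467d led the family in both libraries. It lies on chromosome 2 at 10507630-10507714 and had 7376 counts in replicate 1 and 5229 in replicate 2, which is 1532 and 1496 CPM, or 1514 ± 25.2 CPM (SD, n = 2). It held 56.4% of the family's counts in replicate 1 (interval 55.5% to 57.2%) and 55.5% in replicate 2 (54.5% to 56.5%), and among all 2202 genes it ranked 90 and 93. Both libraries placed it well above Mir467e, the next gene by mean CPM. Its level was 3.69 times that of Mir467e in replicate 1 (interval 3.51 to 3.88) and 4.31 times in replicate 2 (4.05 to 4.6). The 3 most abundant genes, Mir467d, Mir467e and Mir669c, held 83.2% ± 1.16 of the family's counts (SD, n = 2).

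Mir467e, at 10505721-10505807 on chromosome 2, had 1999 and 1212 counts, or 415 and 347 CPM in replicates 1 and 2. Mir669c, at 10509296-10509404, had 1619 and 1323 counts, or 336 and 378 CPM. The order of these neighbours in level was not the same in the 2 libraries: Mir467e was 1.23 times Mir669c in replicate 1 (interval 1.16 to 1.32) and 0.916 times in replicate 2 (0.847 to 0.991). Mir669o, at 10514300-10514395, followed with 1146 and 1001 counts, or 238 and 286 CPM, and lay below Mir669c in both libraries.

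Mir467c and Mir669l formed the next pair, and their order also changed. Mir467c, at 10473931-10474027, had 584 and 263 counts, or 121 and 75.2 CPM. Mir669l, at 10468971-10469068, had 295 and 289 counts, or 61.3 and 82.7 CPM. Mir467c was 1.98 times Mir669l in replicate 1 (interval 1.72 to 2.28) and 0.910 times in replicate 2, where the interval of 0.767 to 1.08 spans equality.

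The lowest of the 8 were Mir669h and Mir669e. Mir669h, at 10518155-10518279, had 36 and 35 counts, or 7.48 and 10.0 CPM. Mir669e, at 10467495-10467613, had 19 and 62 counts, or 3.95 and 17.7 CPM, so it lay below Mir669h in replicate 1 and above it in replicate 2. From Mir467d to Mir669h the mean levels spanned 173 times.

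**Figure D1:**
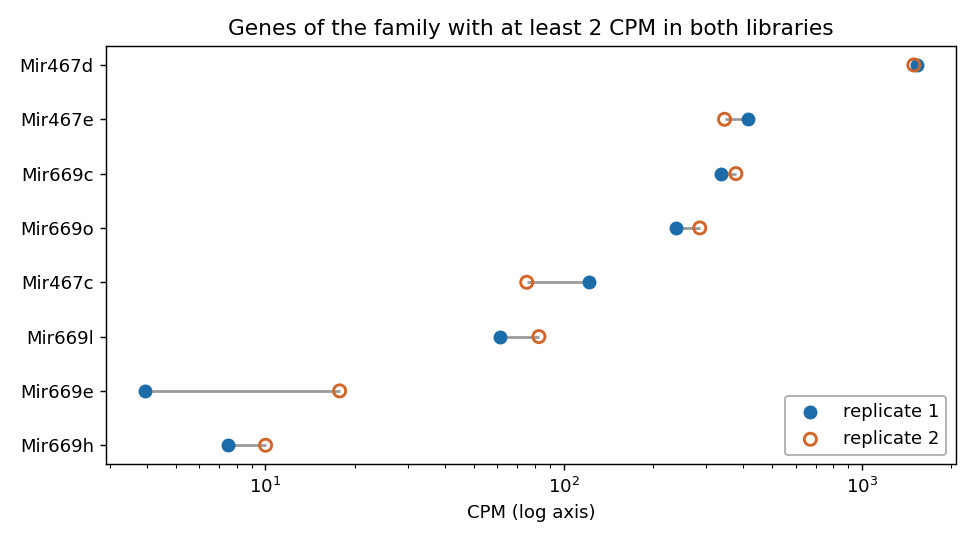
Level in CPM (log axis) of the 8 genes of the family with at least 2 CPM in both libraries, with replicate 1 as filled and replicate 2 as open circles and a line joining them. Mir467d lies highest, at 1532 and 1496 CPM, and Mir669e, at 3.95 and 17.7 CPM, has the widest gap.

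The 5 genes with 1 to 9 counts in all included the leading members of the other name groups. Mir466q, the highest Mir466 gene and the highest gene outside Sfmbt2, lies in an intron of Tnik, a kinase gene, on chromosome 3 at 28419943-28420018, and had 1 and 7 counts. Mir297a-2, the highest Mir297 gene, had 3 and 2 counts. The remaining 3 were Mir669f (3 and 0 counts), Mir466d (2 and 0) and Mir466n (1 and 1), which were named after their values were seen. None of the other 9 genes outside Sfmbt2 lay within an annotated host gene on its strand, and all 9 had 0 counts, which include Mir466k and Mir669n.

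Near-identical hairpins lay side by side in the middle of the intron. To describe how far reads could be assigned to a single hairpin, each run of 20 consecutive bases was looked up in all other microRNA hairpins in their own sense orientation. Runs were counted over the whole hairpin, not only over the stretches that become mature microRNAs. Of the 81 hairpins, 79 shared at least 1 such run with another microRNA gene, and 32 had no run of their own. All 32 lie inside Sfmbt2, and all had 0 counts. By name group they are 10 of 17 Mir467, 13 of 30 Mir669, 9 of 28 Mir466 and 0 of 6 Mir297 genes. They include 10 of 10 Mir467a genes and 11 of 12 Mir669a genes, named after their values were seen, whose products are among the better known of the cluster: miR-669a has been described as a repressor of MyoD in heart progenitors. Of the 269 microRNA genes outside the family with no run of their own, 266 had 0 counts in both libraries. For the 32 hairpins, no transcription and reads that fitted several places cannot be told apart.

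From the first to the last Mir467a gene, at 10476346-10503355, the intron holds 33 genes, of which 11 are Mir467, 9 are Mir466 and 13 are Mir669 genes. Mir467a starts follow each other at a median of 2462 bases (range 2413 to 4880), in most cases with a Mir466 gene and then a Mir669 gene between them. In this array 29 of 33 hairpins had no run of their own, and the 33 genes together had 0 counts in both libraries. The 16 genes before it, from Mir466m to Mir669k, held 904 and 616 counts, 6.91% and 6.54% of the family. The 22 genes after it, from Mir466b-3 to Mir669h, held 12179 and 8801 counts, 93.1% and 93.4%. Hairpins with no run of their own numbered 1 of 16 before the array and 2 of 22 after it.

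**Figure D2:**
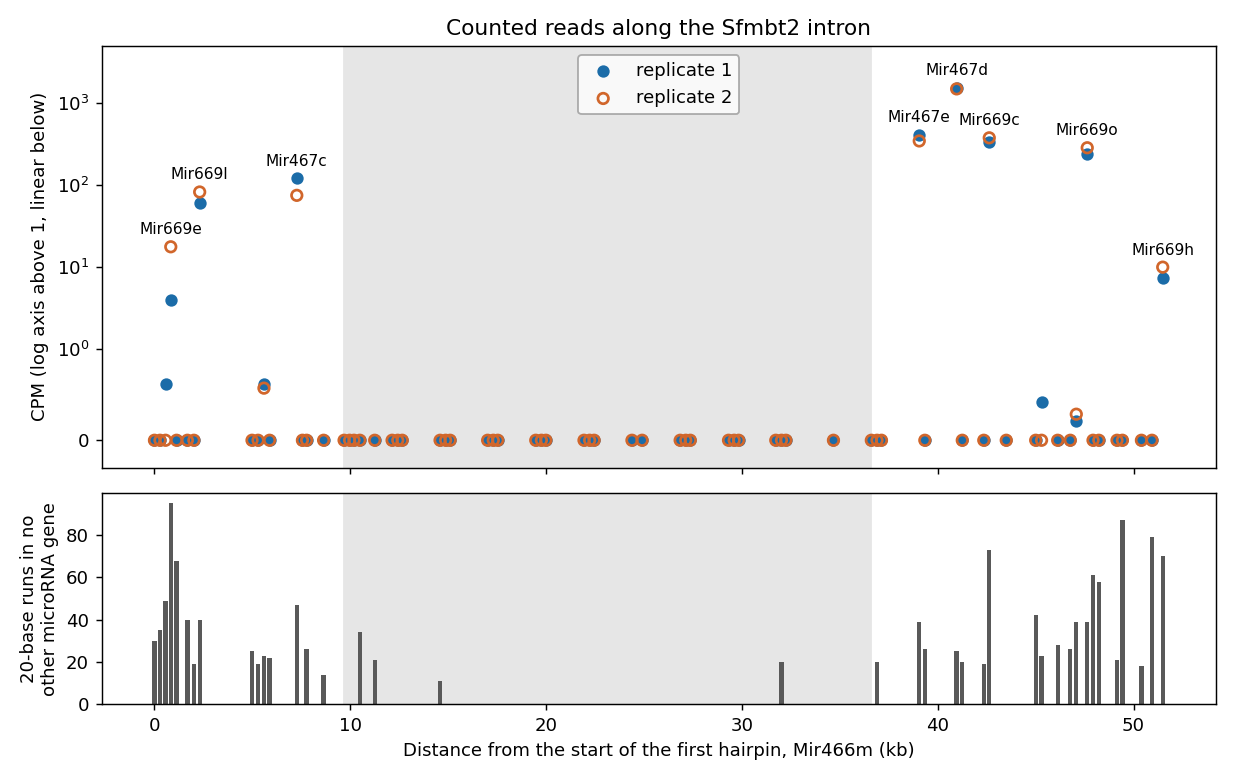
Upper panel: CPM of the 71 genes inside Sfmbt2 in replicate 1 (filled) and replicate 2 (open) against distance from the first hairpin in kb, on an axis that is logarithmic above 1 and linear below. Lower panel: number of 20-base runs of each hairpin found in no other microRNA gene. The grey band is the Mir467a array, where all 33 genes had 0 counts and 29 had no run of their own.

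Among the 8 genes above 2 CPM, more own runs did not go with higher levels. Mir467d, the most abundant, had 25 own runs of 66. Mir467e and Mir669o had 39 each, Mir669l had 40, Mir467c 47, Mir669h 70 and Mir669c 73. Mir669e, among the lowest in reads, had 95 of 100. Mir669e shared a run with 1 other microRNA gene, which was not of the family, while Mir467d shared runs with 14 genes and Mir669o with 56. Across all 81 genes, which share sequence and libraries and are not independent, Spearman's rho between own runs and mean CPM was 0.41. Across the 49 genes with at least 1 own run it was 0.22. The 0.41 includes the 32 genes with no own run, which could hardly get uniquely assigned reads, so it is partly set by construction. Both are given as a description.

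Of the 49 genes with runs of their own, 36 (73.5%) had 0 counts in both libraries. This share was 82.6% among 736 other microRNA genes that share bases and have own runs, and 63.8% among all 2202 genes. The last set also includes genes with no own run. These are 32 of the family, all at 0 counts, and 269 others, 266 of them at 0 counts. Of the 49 genes, 16.3% reached 2 CPM in both libraries, against 11.0% of the 736. Of the 36, 27 lay inside Sfmbt2, and 10 had more than 60 own runs. An own run may lie outside the mature product. Whether reads of the mature products could be uniquely assigned was not tested for these 36 genes. The hairpins that shared no run with any microRNA gene were Mir466g, at 10514595-10514674 in the Sfmbt2 intron with 61 own runs of 61, and Mir669n, on chromosome 3 at 115979902-115979955 with 35 of 35. Both had 0 counts in both libraries. Mir466g lies 199 bases after Mir669o, which had 1146 and 1001 counts. The next gene, Mir466h, described as promoting apoptosis in cultured cells, had 58 own runs of 62 and 0 counts. Mir466l, whose 3′ product is described as stabilising interleukin transcripts in macrophages, had 87 own runs of 102 and 0 counts. Mir466h and Mir466l were named after their values were seen. Of the own runs of these 4 genes, at least 1 each was found in other GENCODE transcripts or RefSeq promoter windows, which left 57 for Mir466g, 53 for Mir466h, 77 for Mir466l and 34 for Mir669n. The rest of the genome was not searched.

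The genes of the family at 0 made up 84.0%, against 87.0% of the 1005 other microRNA genes that share 20 bases with another gene. Among the 1116 genes outside the family that share none, 41.5% were at 0. Of those 3 sets, 9.88%, 8.16% and 31.5% reached 2 CPM in both libraries. The family lay nearer to other genes with copies than to genes without, and this was not tested.

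**Figure D3:**
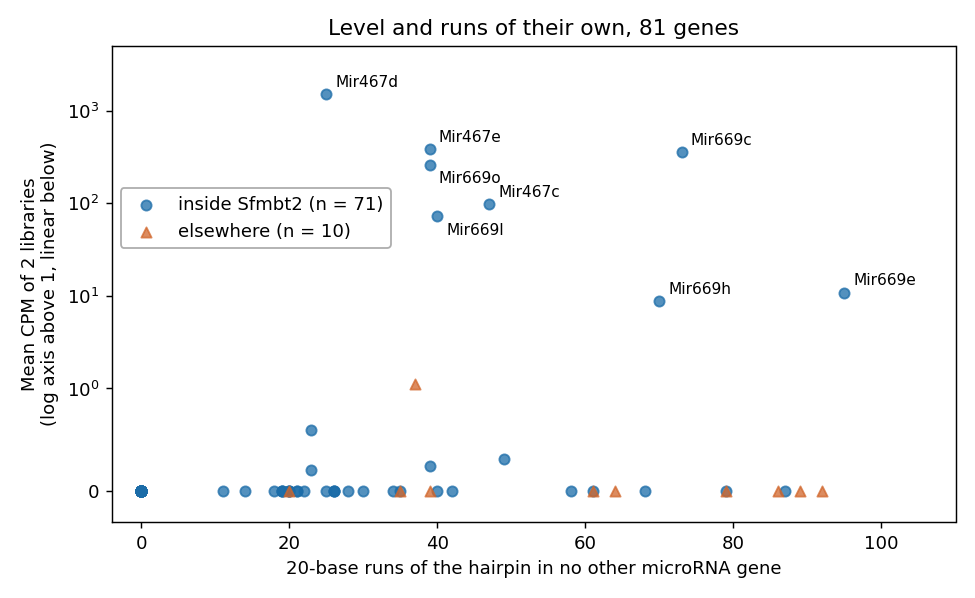
Mean CPM of 2 libraries (log axis above 1, linear below) against the number of 20-base runs in no other microRNA gene, for 71 genes inside Sfmbt2 (circles) and 10 elsewhere (triangles). The 32 genes without an own run all lie at 0, and genes with 60 or more own runs appear both at 0 and at up to 357 CPM (Mir669c).

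The last question was how far the 2 libraries differed for these genes. The comparison is between libraries, not conditions, and its error is counting error. The 8 genes above 2 CPM were also those with at least 10 counts over both libraries, the minimum for the test, and 1 of the 8, Mir669e, differed. The call took a two-sided exact binomial test, adjusted by Benjamini-Hochberg over all 540 tested genes, and a log2 ratio of at least 1 either way. Over all tested genes 18.7% differed in this way, and 11.5% were higher in replicate 2, as Mir669e was. By the adjusted p alone 6 of the 8 passed, against 55.7% of all tested genes.

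Mir669e had a log2 ratio (replicate 2 over replicate 1, with 0.5 counts added) of 2.14 with a counting SE of 0.37 and an adjusted p of 1.4e-09. With an edgeR exact test that allows for the spread between the libraries, the adjusted p was 0.76, and 0 of the 8 genes differed, where 4 of all 540 did. That spread was estimated from the same 2 libraries, so their difference itself counted as spread and few calls could result. At an unadjusted p under 0.05 the edgeR test gave 1 of the 8, against 27 of all 540. Mir669e rests on 19 and 62 counts, the only one of the 8 to pass the 2-fold mark.

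The other 7 log2 ratios lay between -0.69 and 0.43. Mir467c had the lowest at -0.69 (SE 0.11, adjusted p 1.6e-10 by the binomial test), and Mir669l had the highest where the mean reached 50 counts, at 0.43 (SE 0.12). Mir467d had -0.03 (SE 0.026, adjusted p 0.29) and Mir669h had 0.42 (SE 0.34, adjusted p 0.33), and neither passed with library totals. Mir467d passed by the adjusted p with TMM sizes (log2 ratio -0.12, adjusted p 1.1e-05 by the binomial test) and with DESeq2 factors (-0.20, adjusted p 4.1e-14), below the 2-fold mark in each. Mir669c and Mir669o passed with library totals at adjusted p of 0.0030 and 4.9e-05 and did not with DESeq2 factors, at 0.98 and 0.17. Mir669c did not with TMM sizes either, at 0.18. Of the 8 ratios 5 lay above 0 and 3 below, against 309 above and 231 below among all 540 tested genes. The median of the 8 was 0.22, and that of all tested genes was 0.17. With DESeq2 factors, which shift every ratio by the same amount, these were 0.052 and 0.0051. The family's median minus that of all genes was 0.047, against 0.14 with a minimum of 50 counts and -0.0017 with a minimum of 1 count.

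**Figure D4:**
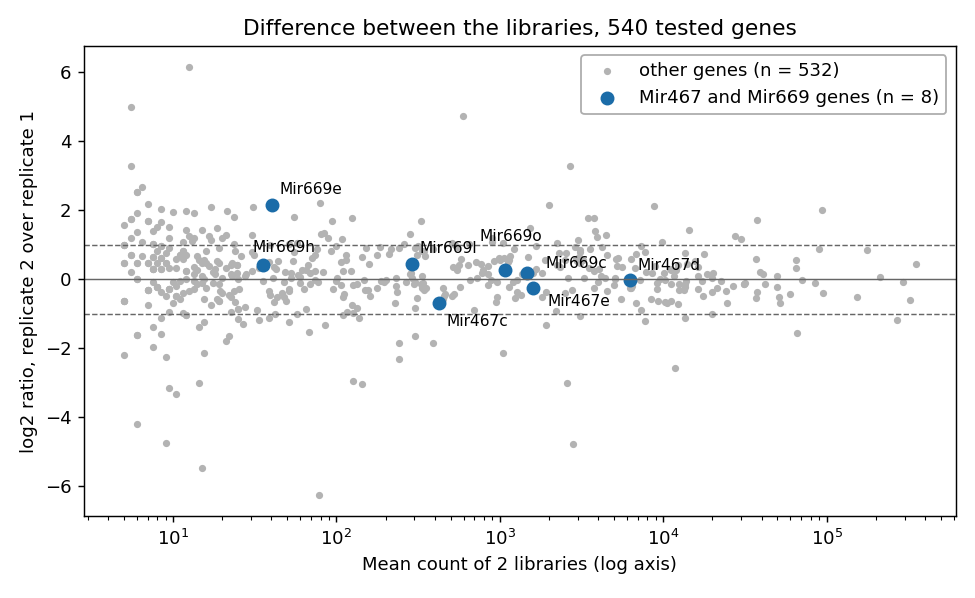
Log2 ratio of replicate 2 over replicate 1 against the mean count of 2 libraries (log axis) for 540 tested microRNA genes, with the 8 genes of the family in blue and the others in grey. Dashed lines mark a log2 ratio of 1 either way, and Mir669e, at 2.14, is the 1 gene of the family beyond them.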

How the data were processed

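Each library has a deposited table of unnormalised read counts by microRNA gene. The submitters' deposited notes name mm10 and GENCODE M21; aligner, counter and trimming: not given in the sources used here. Counts of the column for the sense strand were used, and for all 81 genes they equalled the unstranded counts. The lines of totals (unmapped, fitting several places, outside genes) were left out of library sizes.

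The genes and lists were chosen with earlier results of these data known. Symbols, positions, introns and hairpins came from GENCODE M21 (GRCm38), and printed sequences from RefSeq (GRCm38.p6). CPM used counts on genes. The libraries were set against each other with an exact binomial test on every gene that had 10 or more counts in all, adjusted by Benjamini-Hochberg. A gene differed at an adjusted p under 0.05 and a log2 ratio of 1 or more either way. Over these 540 genes the chi-square was 459040, so the replicates are not 1 library deposited more than once. The edgeR alternative took the common dispersion of an intercept-only fit (a coefficient of variation of 42.2%). The binomial test and the search for own runs were tried on simulated data. The simulated libraries held counting error only, so they do not bear on the spread between the real libraries.

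Named genes were the 10 highest by mean CPM, the highest of each name group and outside Sfmbt2, those that differed, the highest and lowest ratio at a mean of at least 50 counts, and those sharing no run of 20 bases. Versions were edgeR 4.0.16 and DESeq2 1.42.0 in R 4.3.3, with SciPy 1.17.1 and pandas 2.3.3 in Python 3.11.15. Allele-specific counting was not analysed here. Runs of 20 bases were looked up in annotated mm10 sequences only, so sequence differences of the CAST/EiJ parent were not taken into account. Alternatives covered scaling, filters, thresholds, denominators, strand and each replicate left out.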

Additional observations from a re-analysis of the deposited data

How the results depend on the processing

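The family's share of counts was 0.0995% of all reads, 0.132% when reads that fit several places were added to the denominator (chosen after seeing the data) and 0.288% of unstranded counts, and it lay between 0.270% and 0.272% with either replicate left out. Other denominators change this share by construction. The number of genes reaching the detection threshold was 6 at 10 CPM, 11 at 1 count, 8 on unstranded counts, and 8 or 9 with a replicate left out. With a minimum of 1 count 2 of 13 tested genes differed between the libraries (Mir466q was added), where 13.9% of all tested genes did. The number differing was 6 with no ratio minimum and 0 with the edgeR exact test, whose spread was estimated from the same 2 libraries. It was 1 with TMM sizes, with DESeq2 factors, with a minimum of 50 counts and on unstranded counts. The median log2 ratio of the tested genes was 0.13 with TMM sizes and 0.052 with DESeq2 factors, from the change of scale. Hairpins without an own run numbered 32 with runs of 20 bases and also with runs of 18 or 22 bases, on both strands, and with other transcripts and promoter windows searched, all chosen after seeing the data. The comparison of libraries cannot be made with a replicate left out. No paired analysis was possible because there was 1 group. Depth limits the 5 genes with 1 to 9 counts, whose levels rest on a few reads.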

Other observations

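The Sfmbt2 intron and the rest of that gene hold 48 further annotated microRNA genes on the same strand, all with provisional Gm symbols. Of these, 44 had 0 counts in both libraries, 46 share 20 bases with another microRNA gene, and 22 had no run of their own. Together they held 5 counts in replicate 1 and 4 in replicate 2. None of the 81 hairpins overlapped another annotated microRNA gene on its strand.

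The microRNA groups below, set beside the family for comparison, held fewer uniquely assigned reads. The 13 Mir344 genes, known from brain, held 170 and 115 counts (0.00341% ± 0.00017 of counts, SD, n = 2), and 3 of them, Mir344g, Mir344b and Mir344f, reached 2 CPM in both libraries. Mir344g led with 16.4 and 13.4 CPM. The 9 genes of the Mir290 to Mir295 cluster of early embryos held 9 and 12 counts. The 19 X-linked genes of families known from testis held 48 and 11 counts, of which Mir741 held 30 and 0.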
